A study of Mus musculus with 9 samples.

Results

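Dnmt1, Uhrf1, Dnmt3a, Dnmt3b, Dnmt3l, Tet1, Tet2, Tet3, Tdg and Zfp57 are the genes that write, copy, remove or protect DNA methylation in early mouse cells. They were found by their mouse gene symbols. Each symbol matched 1 row, so all 10 were found among the 16636 genes of the count table, and all 10 were among the 14246 genes that passed the filter on low counts. mRNA was sequenced from the mouse embryonic stem cell line E14. The genotype label is wild type for untreated cells and Stag3 knockdown for the cells given the siRNA against Stag3. All cells grew on fibronectin in 2i/LIF medium, which blocks the kinases MEK and GSK3 and adds the cytokine LIF to hold the cells in the naive state. The 3 groups were untreated cells, cells transfected with a luciferase control siRNA (siLuc) and those transfected with an siRNA against Stag3 (siStag3), which encodes a cohesin subunit known mainly from meiosis. The siRNA groups were collected at 48 hours and had received 50 pmol of siRNA at seeding and 50 pmol again on the next day, whereas untreated cells had no transfection. An siRNA lowers a transcript and does not delete its gene, and the siRNA sequences are not given in the labels.

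Each group had 3 libraries, described by the submitters as biological replicates. The labels do not say whether these were separate cultures started from 1 stock, so p-values measure the spread between these libraries. Only RNA was measured, so the methylation of DNA and the proteins of these genes were not analysed here. Column names add a set number (1 or 3) whose meaning the labels do not give, and an experiment number that they do not explain either. Each group had 2 libraries of Set 1 (experiments 1 and 3) and 1 library of Set 3. The Set 3 library was experiment 5 in untreated cells and siStag3 and experiment 1 in siLuc, so every Set 3 difference that involves siLuc compares unlike experiment numbers, and the part of this in the values was not tested. Libraries held 29332436 to 44527534 counts, so the detection floor of 3 counts used here is 0.0650 to 0.0990 CPM, a unit that relates a count to the total of its library. The siRNA target Stag3 had 13.5, 15.2 and 15.6 CPM in siStag3, below the 22.5, 23.3 and 26.7 CPM of siLuc and the 24.1, 24.3 and 28.6 CPM of untreated cells. It fell against siLuc by 0.71 on the log2 scale (SE 0.0722, edgeR adjusted p = 0.00205). All 8 naive stem cell markers were present, and their summed level was 4545 to 5004 CPM per library. Sums were 33.7 to 55.4 CPM for markers of the formative and primed epiblast, 1.62 to 2.93 CPM for primitive endoderm, 1.34 to 2.52 CPM for fibroblast feeders and 0.238 to 0.819 CPM for 2-cell-like cells. The sum of 60.6 to 72.3 CPM for trophoblast markers came mostly from Tfap2c, with Cdx2 at 0.421 to 2.02 CPM.

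In mammals the methyl group sits mainly on cytosines followed by guanine (CpG). DNMT3A and DNMT3B place it on unmethylated DNA, helped by DNMT3L, which has no catalytic activity of its own. After replication UHRF1 binds the hemimethylated CpG and brings in DNMT1, which copies the mark to the new strand. The TET enzymes oxidise methylcytosine, and TDG cuts out the most oxidised forms so that base excision repair can restore cytosine. ZFP57 is a zinc finger protein that binds methylated imprint control regions and, through TRIM28, keeps their methylation. Naive cells in 2i/LIF are known for a genome with little methylation.

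Dnmt3b and Dnmt3l had their lowest group means in siStag3, although the libraries of Dnmt3b overlapped between groups. Tet1 and Tet2 differed most between the sets of libraries. For these reasons the 250 bases before the first listed start site are printed for Dnmt3b, Dnmt3l, Tet1 and Tet2. They are RefSeq sequences of GRCm38.p6, written 5′ to 3′ on the strand of the gene, with each CpG in capitals. The mark written by these enzymes can be placed on these letters, so they show how much CpG each gene has near its own start. Dnmt3b lies on the plus strand with this stretch at chr2:153649199-153649448, Dnmt3l on the plus strand at chr10:78042037-78042286, Tet1 on the minus strand at chr10:62887325-62887574 and Tet2 on the minus strand at chr3:133544391-133544640.
Dnmt3b: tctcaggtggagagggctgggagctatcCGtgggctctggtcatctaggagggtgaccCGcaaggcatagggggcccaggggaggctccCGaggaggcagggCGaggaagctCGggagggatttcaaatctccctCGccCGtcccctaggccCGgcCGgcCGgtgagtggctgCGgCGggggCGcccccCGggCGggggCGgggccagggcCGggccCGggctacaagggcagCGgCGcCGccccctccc
Dnmt3l: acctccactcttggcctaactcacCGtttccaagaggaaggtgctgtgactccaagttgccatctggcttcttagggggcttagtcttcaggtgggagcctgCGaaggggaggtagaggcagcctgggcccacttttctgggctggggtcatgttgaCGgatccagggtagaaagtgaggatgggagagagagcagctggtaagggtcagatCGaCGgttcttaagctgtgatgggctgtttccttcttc
Tet1: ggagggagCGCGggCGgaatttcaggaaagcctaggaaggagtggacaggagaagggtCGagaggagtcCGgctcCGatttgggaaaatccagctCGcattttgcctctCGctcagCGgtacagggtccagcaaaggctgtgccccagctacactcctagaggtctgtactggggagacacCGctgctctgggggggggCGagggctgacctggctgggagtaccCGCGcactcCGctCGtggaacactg
Tet2: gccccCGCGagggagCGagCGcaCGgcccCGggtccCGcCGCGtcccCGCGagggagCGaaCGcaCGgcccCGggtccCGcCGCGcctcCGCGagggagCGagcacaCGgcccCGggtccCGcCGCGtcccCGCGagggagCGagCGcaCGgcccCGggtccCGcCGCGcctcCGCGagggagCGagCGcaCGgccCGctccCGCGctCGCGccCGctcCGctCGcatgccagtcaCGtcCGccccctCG

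These stretches differ widely in CpG. That of Tet2 holds 51 CpG in 250 bases, more than 99.9% of the 32851 RefSeq promoters of the same length, which have a median of 6. Dnmt3b has 21 CpG and Tet1 has 15. Dnmt3l has 5 CpG at the start printed and 4 and 3 at its other listed starts, below the median of all promoters. Among the other members the stretch holds 19 CpG for Tdg, 17 for Tet3, 10 or 30 for Uhrf1, 2 to 26 for Dnmt1, 15 to 40 for Dnmt3a and 3 to 7 for Zfp57, depending on the start. Which start these cells use was not analysed here.

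The maintenance pair and the imprint protector were the most abundant transcripts. To compare genes, CPM was divided by the length of the longest coding transcript. Uhrf1 led with 226 ± 14.6 CPM per kilobase (mean ± SD, n = 9 libraries), which is above 98.1% of tested genes. Zfp57 followed with 134 ± 19.6 and Dnmt1 with 82.4 ± 4.61 CPM per kilobase. Tet1 was at 41.8 ± 10.7 and Dnmt3b at 36.2 ± 2.93 CPM per kilobase, and the libraries of these neighbours overlapped. Tdg stood at 21.8 ± 1.44 and Tet2 at 11.7 ± 3.09 CPM per kilobase. Dnmt3a, at 4.17 ± 0.398, and Dnmt3l, at 3.99 ± 0.476 CPM per kilobase, overlapped each other and lay above 43.1% and 42.4% of tested genes. Tet3 was lowest with 0.188 ± 0.0427 CPM per kilobase, above 8.25% of genes, and rested on 52 to 115 counts per library. Every other pair of neighbours in this order was separated in all 9 libraries. The order depends on the length used. With the median length of each gene's coding transcripts, 7 of the 10 places change and Tet1 comes first, since short annotated transcripts give it a median of 567 bp against 14369 bp for the longest.

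**Figure D1:**
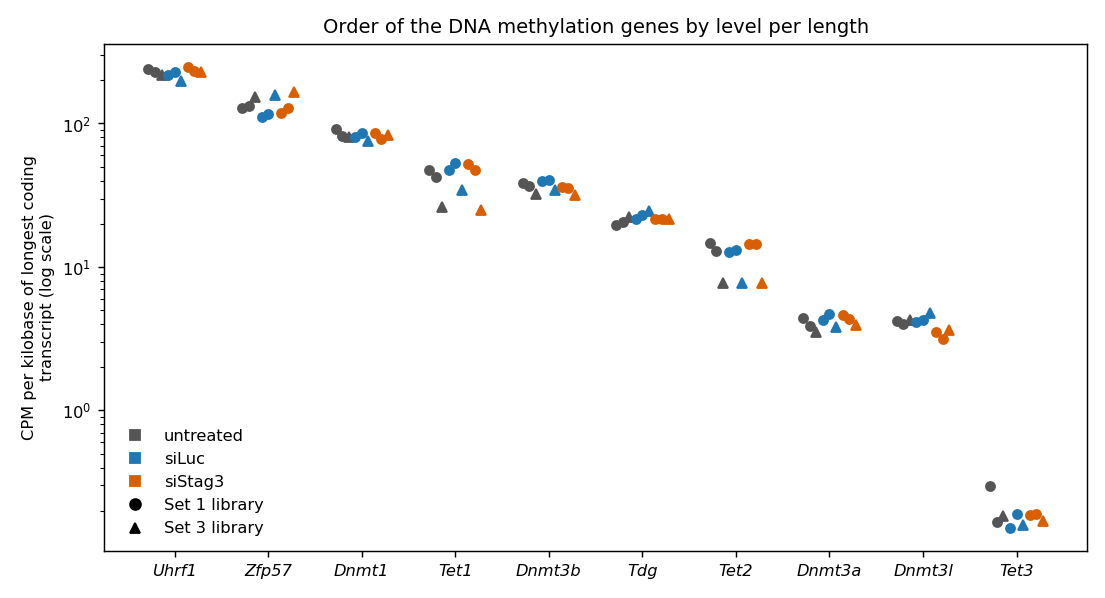
Level of each member in CPM per kilobase of the longest coding transcript (log axis), with 1 point per library coloured by group, circles for Set 1 and triangles for Set 3. Uhrf1, Zfp57 and Dnmt1 lie highest, Tet1 overlaps Dnmt3b, Dnmt3a overlaps Dnmt3l, and Tet3 lies lowest at 0.188 CPM per kilobase on average.

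None of the 10 members passed the test between any pair of groups in the edgeR fit with the set as a covariate. In siStag3 against siLuc this was 0 of 10, where 0.0281% of all tested genes passed (4 genes). In siLuc against untreated it was 0 of 10, where 4.2% of genes passed (598 genes). In siStag3 against untreated it was 0 of 10, where 2.53% passed (361 genes). The libraries of siLuc and untreated cells overlapped for all 10 members, and did not overlap for 19.9% of tested genes. At an unadjusted p under 0.05 the members numbered 3, 2 and 1 of 10 in these comparisons, against 7.88%, 27.8% and 17% of all tested genes. The DESeq2 Wald test passed 0 members in either comparison with siStag3 and 1, Tet1, in siLuc against untreated. The median log2 fold change of the members was 0.02 in siStag3 against siLuc, beside -0.00479 over all genes, and their median absolute log2 fold change was 0.113, beside 0.0868. In siLuc against untreated that absolute median was 0.103 beside 0.143 over all genes, and in siStag3 against untreated 0.0520 beside 0.110. In bulk RNA, fewer cells that express a gene and less RNA per cell cannot be told apart. The comparisons share groups of libraries, so their values are not independent of each other.

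**Figure D2:**
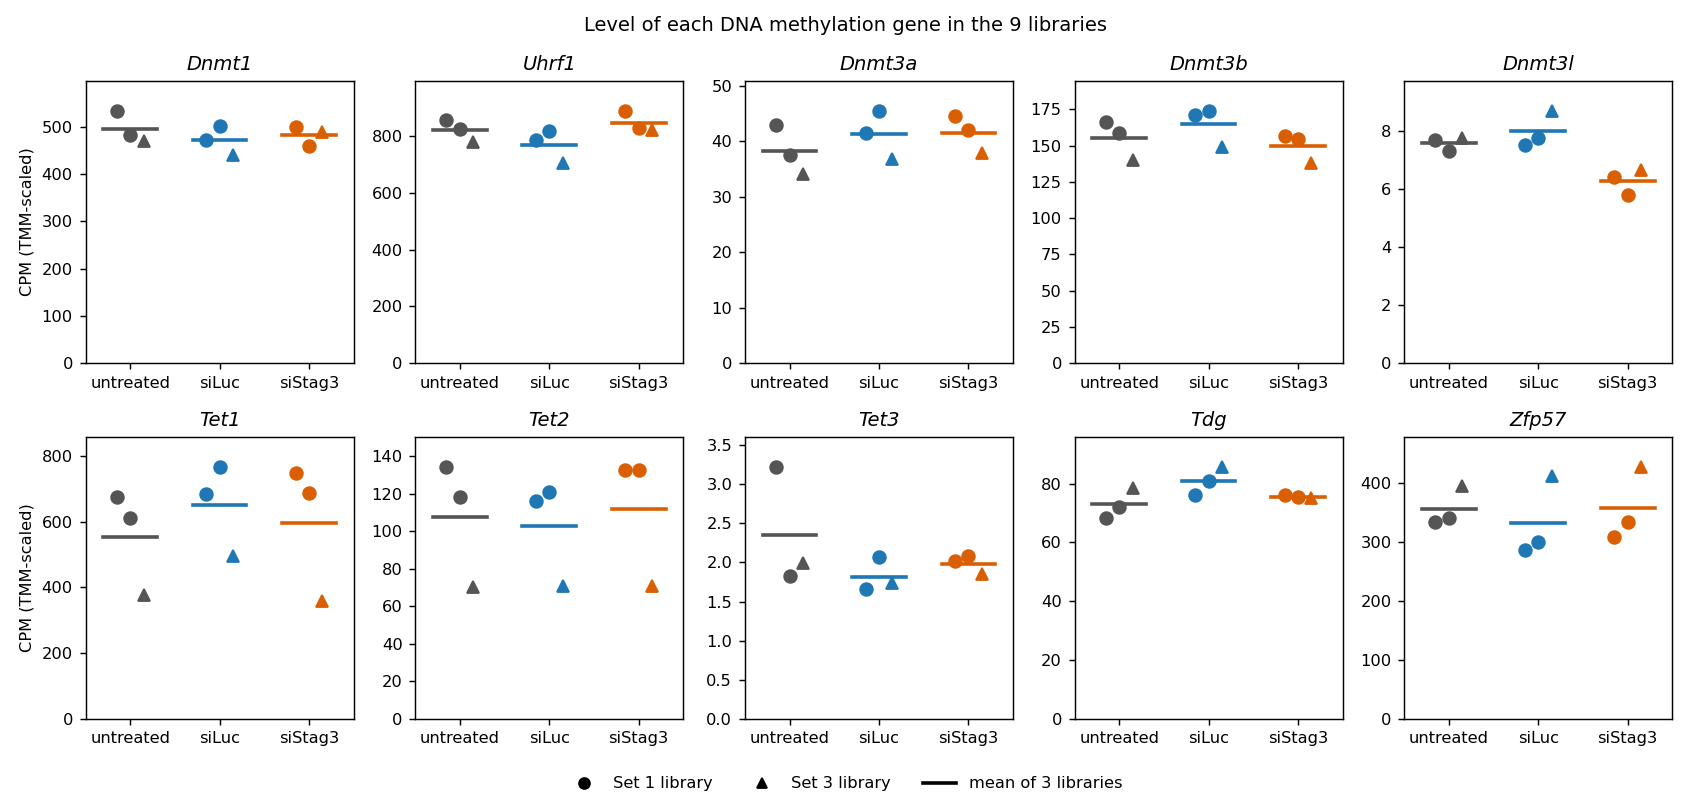
Level of each member in CPM in every library, by group, with 1 panel per gene, circles for Set 1, triangles for Set 3 and a line at the mean of 3 libraries. Dnmt3l in siStag3 (5.77 to 6.63 CPM) lies below every siLuc and untreated library, and Tet1, Tet2 and Zfp57 separate by set within each group.

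Among the maintenance genes, neither Dnmt1 nor Uhrf1 passed in any comparison between groups. Dnmt1 stood at 533, 484 and 471 CPM in untreated cells, at 472, 503 and 441 CPM in siLuc and at 501, 460.0 and 489 CPM in siStag3, with each group given as its 2 Set 1 libraries and then its Set 3 library. The 3 groups overlapped. For siStag3 against siLuc the log2 fold change was 0.04 with a 95% interval of -0.10 to 0.17 (edgeR adjusted p = 0.886). Uhrf1 stood at 858, 825 and 778 CPM in untreated cells, at 786, 817 and 704 CPM in siLuc and at 887, 828 and 820.3 CPM in siStag3. All 3 siStag3 libraries were above all siLuc libraries and overlapped the untreated ones. This pattern, with all of siStag3 above all of siLuc, was seen for 1 of 10 members and 3.18% of tested genes. For Uhrf1 the log2 fold change against siLuc was 0.14 (SE 0.0544, interval 0.02 to 0.26), which did not pass after adjustment over all genes (edgeR adjusted p = 0.546). Within sets it was 0.10 in Set 1 and 0.22 in Set 3.

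Of the genes of the catalytic de novo enzymes, Dnmt3b had more CPM in every library. Per kilobase its rank against Dnmt3a turns on the length used, since with the median coding transcript Dnmt3a had a mean of 49.6 and Dnmt3b 37.8 CPM per kilobase. Dnmt3a stood at 42.9, 37.6 and 34.2 CPM in untreated cells, at 41.5, 45.4 and 36.9 CPM in siLuc and at 44.7, 42.1 and 38.0 CPM in siStag3. For siStag3 against siLuc the log2 fold change was 0.01 with an interval of -0.14 to 0.16 (edgeR adjusted p = 0.970). The groups overlapped, and the Set 3 library was lowest in each. Dnmt3b stood at 166, 159 and 140.4 CPM in untreated cells, at 171, 174 and 149 CPM in siLuc and at 157, 155 and 138 CPM in siStag3. Within each set siLuc was highest and siStag3 lowest, while the groups as a whole overlapped. Its log2 fold change was -0.14 in siStag3 against siLuc (SE 0.0512, interval -0.25 to -0.03, edgeR adjusted p = 0.518), with -0.15 in Set 1 and -0.12 in Set 3. Between siStag3 and untreated libraries of the same set and experiment, Dnmt3b was lower in 3 of 3 matches (log2 differences of -0.08 to -0.03). Dnmt3a was higher in 3 of 3 (0.06 to 0.17), and neither gene passed (edgeR adjusted p = 0.647 for Dnmt3b and 0.379 for Dnmt3a). Uhrf1 was also higher in 3 of 3 (0.00452 to 0.0769). The share of all tested genes with the same direction in 3 of 3 matches was not computed, so these counts have no background.

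Dnmt3l, the cofactor, held the smallest p of the members in both comparisons with siStag3. It stood at 7.69, 7.30 and 7.74 CPM in untreated cells, at 7.51, 7.73 and 8.66 CPM in siLuc and at 6.41, 5.77 and 6.63 CPM in siStag3, from 183 to 357 counts per library. Each siStag3 library was below each library of both other groups. It was the 1 member of 10 with all of siStag3 below all of siLuc, as were 3.41% of tested genes, and the 1 of 10 below all untreated libraries, as were 5.38%. The log2 fold change was -0.34 against siLuc (SE 0.0971, interval -0.55 to -0.14) and -0.27 against untreated cells (SE 0.0966, interval -0.48 to -0.06). Neither passed after adjustment over all genes (edgeR adjusted p = 0.394 and 0.165). By p it ranked 112 of 14246 genes against siLuc. Within sets the difference from siLuc was -0.33 in Set 1 and -0.39 in Set 3, and that from untreated cells was -0.30 and -0.22. As each siStag3 library lay below every untreated one, Dnmt3l was bound to be lower in all 3 matches of set and experiment. The siStag3 libraries also had the lowest sums of trophoblast markers, 60.6 to 64.1 CPM beside 68.4 to 72.3 CPM in the other groups. Their sums of primitive endoderm markers were 1.62 to 2.39 CPM beside 2.46 to 2.93 CPM. These differences came mostly from Tfap2c and Pdgfra, with means of 58.4 and 1.30 CPM in siStag3, 65.7 and 1.72 in siLuc and 64.8 and 1.82 in untreated cells. Means of Cdx2, Gata4, Gata6 and Sox17 were also lowest in siStag3. Those of Eomes, Elf5 and Sox7 in siStag3 were above untreated cells and below siLuc. The part of these sums in the result was not tested. Exons of Dnmt3l overlap those of Aire over 67 bases, and Aire held 1 to 17 counts per library.

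Among the erasers, Tet1 was the most abundant and varied widely between libraries. It stood at 677, 610.4 and 377 CPM in untreated cells, at 684, 767 and 497 CPM in siLuc and at 749, 686 and 357 CPM in siStag3. The Set 3 library was far below the other two in each group, and the groups overlapped. With the set in the model, the log2 fold change was 0.25 in siLuc against untreated cells (SE 0.0881, interval 0.06 to 0.44, edgeR adjusted p = 0.101), with 0.17 in Set 1 and 0.40 in Set 3. It passed with the DESeq2 Wald test (0.25, adjusted p = 0.0416) and with only the 6 libraries of these groups in the edgeR fit (0.25, adjusted p = 0.0329), and it was 0.11 with adjusted p = 0.499 after the correction for GC content described with the sets of libraries. In siStag3 against siLuc it was -0.17 (SE 0.0882, edgeR adjusted p = 0.661), with -0.02 in Set 1 and -0.48 in Set 3.

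Tet2 stood at 134, 118 and 70.4 CPM in untreated cells, at 116, 121 and 70.9 CPM in siLuc and at 133, 133 and 70.5 CPM in siStag3. Its 3 Set 3 libraries were nearly equal across the groups. For siStag3 against siLuc it had a log2 fold change of 0.11 with an interval of -0.03 to 0.24 (edgeR adjusted p = 0.701). Tet3 stood at 3.23, 1.83 and 1.99 CPM in untreated cells, at 1.66, 2.07 and 1.73 CPM in siLuc and at 2.02, 2.08 and 1.85 CPM in siStag3. The one high value was the first untreated library. Intervals of Tet3 were wide, from -0.33 to 0.57 for siStag3 against siLuc. In siLuc against untreated cells its log2 fold change was -0.36 with an interval of -0.79 to 0.07 (edgeR adjusted p = 0.254). The size of change that could be detected for Tet3 was not computed.

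Tdg stood at 68.2, 72.1 and 78.6 CPM in untreated cells, at 76.1, 81.0 and 85.8 CPM in siLuc and at 76.2, 75.5 and 75.2 CPM in siStag3. Within each set siLuc was above untreated, by 0.16 on the log2 scale in Set 1 and 0.13 in Set 3. The log2 fold change in siLuc against untreated cells was 0.15 (SE 0.0598, interval 0.02 to 0.28, edgeR adjusted p = 0.128). Counts of Tdg are uncertain, since 75.7% of its 31-base words are also found in transcripts of other genes, mainly the pseudogene Tdg-ps (58.6%). The same share was 29.4% for Uhrf1, mainly through Gm5648 (26.5%), so its counts are uncertain too. For Dnmt3b it was 15.6%, through its rodent duplicate Dnmt3c with 0 to 6 counts per library. It was at most 0.352% for the other members. Tdg-ps and Gm5648 were not found by symbol in the count table, so their counts could not be compared.

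Zfp57 stood at 334, 342 and 395 CPM in untreated cells, at 287, 300.0 and 413 CPM in siLuc and at 309, 334 and 428 CPM in siStag3. The Set 3 library was highest in each group. The log2 fold change was 0.11 in siStag3 against siLuc (interval -0.03 to 0.24, edgeR adjusted p = 0.703) and -0.12 in siLuc against untreated cells (interval -0.25 to 0.02, adjusted p = 0.245). In Set 1 both siLuc libraries were below both untreated ones, by 0.20 on the log2 scale, whereas in Set 3 siLuc was 0.06 above.

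**Figure D3:**
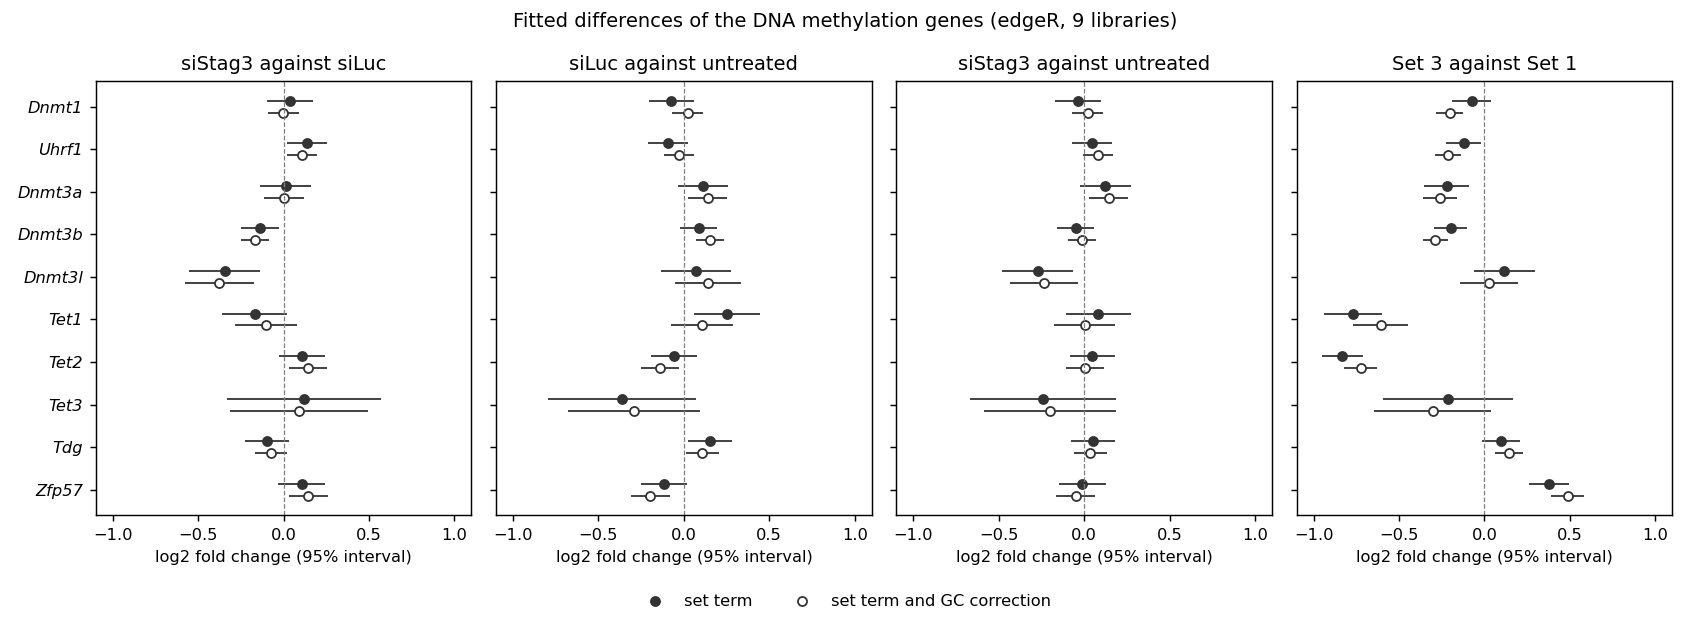
Log2 fold change of each member with its 95% interval in the 3 comparisons between groups and in Set 3 against Set 1, from the edgeR fit with the set as a covariate (filled points) and the same fit with a GC correction (open points). Filled points between groups run from -0.36 for Tet3 to 0.25 for Tet1, both in siLuc against untreated cells. The interval of Dnmt3l is -0.55 to -0.14 in siStag3 against siLuc. Tet1 and Tet2 lie far below 0 between the sets.

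Ratios between paralogs within a library do not depend on how that library was scaled. Their size depends on the transcript lengths used, and their differences between groups do not for ratios of 1 gene to 1 gene. The Dnmt3a to Dnmt3b ratio, per kilobase, was 0.115, 0.106 and 0.109 in untreated cells, 0.108, 0.117 and 0.110 in siLuc and 0.127, 0.122 and 0.123 in siStag3. Each siStag3 library was above each library of the other groups. Group means were 0.110 ± 0.00475, 0.112 ± 0.00442 and 0.124 ± 0.00279 (SD, n = 3 each), a log2 difference of 0.15 for siStag3 against siLuc and 0.18 against untreated cells (two-sided exact permutation p = 0.1 for each). Unlike the edgeR fit, the permutation took no account of the set. The difference of this ratio from siLuc was 0.14 in Set 1 and 0.16 in Set 3. With 3 against 3 libraries, 0.1 is the smallest p this test can give. It was reached by 5 of the 18 tests run on 6 ratios, and the smallest value after Benjamini-Hochberg adjustment over the 18 was 0.36. Here a p of 0.1 means only that the groups compared did not overlap. Ratios of other gene pairs were not computed, so the usual share of such separations is not known.

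The Tet2 to Tet1 ratio, between the genes of the abundant TET enzymes, set siLuc apart instead. It was 0.311, 0.304 and 0.292 in untreated cells, 0.266, 0.247 and 0.223 in siLuc and 0.277, 0.303 and 0.309 in siStag3. All siLuc libraries were below all others. The log2 difference was -0.30 for siLuc against untreated cells and 0.27 for siStag3 against siLuc (exact permutation p = 0.1 for each), and -0.03 for siStag3 against untreated cells (exact permutation p = 0.6). Within siLuc the Set 3 library was lowest. The Uhrf1 to Dnmt1 ratio was 2.63, 2.79 and 2.70 in untreated cells, 2.72, 2.66 and 2.62 in siLuc and 2.90, 2.95 and 2.74 in siStag3, so siStag3 lay above siLuc by 0.10 on the log2 scale (exact permutation p = 0.1) and overlapped untreated cells.

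The other ratios overlapped between all groups. Dnmt3l to the sum of Dnmt3a and Dnmt3b was 0.105 ± 0.0112 without transfection, 0.104 ± 0.0172 with siLuc and 0.0888 ± 0.0116 with siStag3 (SD, n = 3 each). Within each set this ratio was lowest in siStag3. Its log2 difference from siLuc was -0.19 in Set 1 and -0.29 in Set 3 (exact permutation p = 0.3 over both sets). In the same order of groups, Tet3 to Tet1 was 0.00573 ± 0.00158, 0.00378 ± 0.000730 and 0.00479 ± 0.00177. The summed Tet genes to the summed catalytic Dnmt genes gave 0.403 ± 0.0950, 0.457 ± 0.0730 and 0.443 ± 0.146. This eraser to writer ratio separated by set, at 0.495 ± 0.0327 over the 6 Set 1 libraries and 0.314 ± 0.0532 over the 3 Set 3 libraries.

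**Figure D4:**
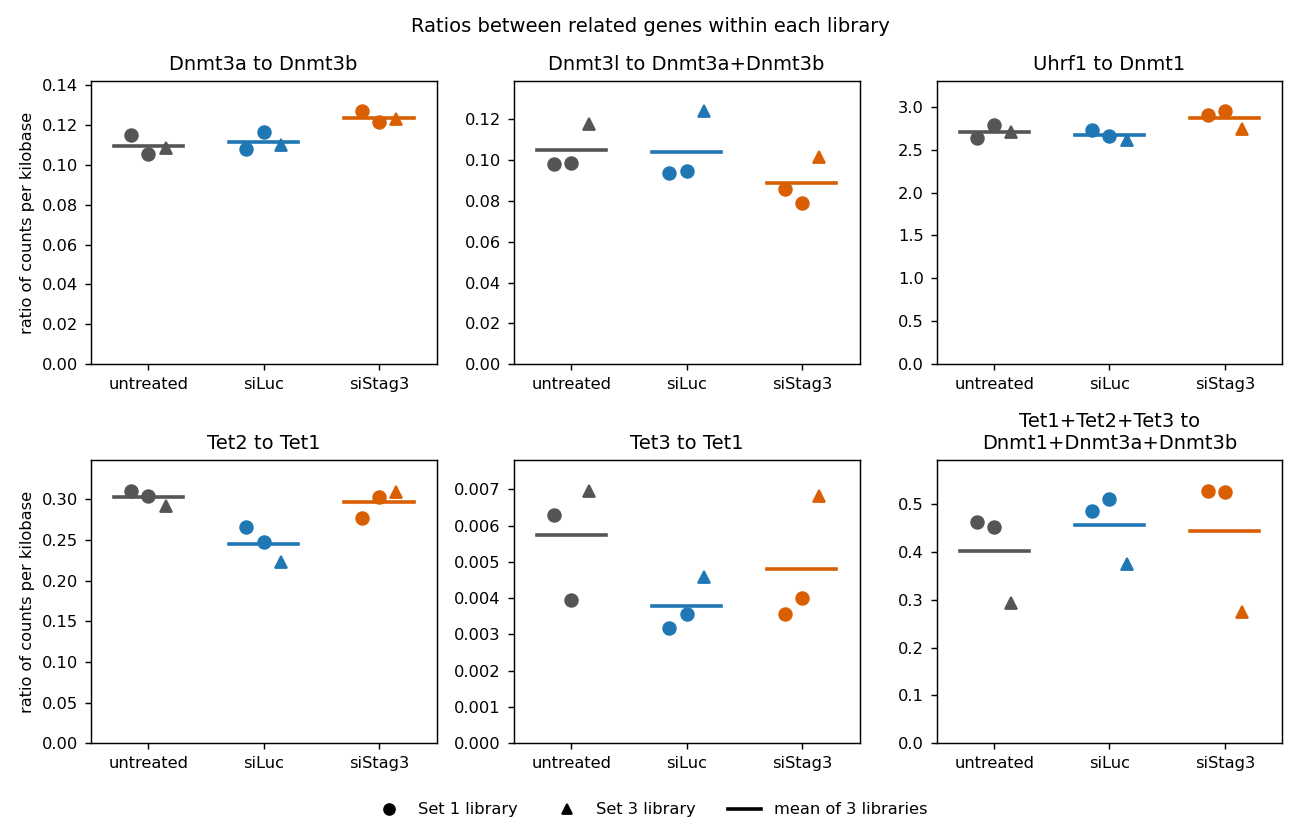
Ratios between members in each library, from levels per kilobase, by group, with circles for Set 1, triangles for Set 3 and a line at the mean of 3 libraries. Dnmt3a to Dnmt3b is highest in siStag3 (0.122 to 0.127), Tet2 to Tet1 is lowest in siLuc (0.223 to 0.266), and the summed Tet to Dnmt ratio separates by set.

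More members passed between the sets of libraries than between the groups. In Set 3 against Set 1, with the groups in the model, 5 of 10 members passed, where 42.7% of all tested genes passed, and 4 of them were lower (21.2% of genes) and 1 higher (21.4%). The members' share was therefore close to that of all genes, and their median absolute log2 fold change was 0.205 beside 0.204. Tet2 fell by 0.83 on the log2 scale (SE 0.0561, edgeR adjusted p = 4.46e-07), from a mean of 126 CPM in Set 1 to 70.6 CPM in Set 3. Tet1 fell by 0.77 (SE 0.0790, adjusted p = 2.43e-05), from 696 to 410.5 CPM. Zfp57 rose by 0.38 (SE 0.0539, adjusted p = 0.000145), from 318 to 412 CPM. Dnmt3b fell by 0.20 (adjusted p = 0.00321) and Dnmt3a by 0.22 (adjusted p = 0.00976), although Dnmt3a did not pass without the untreated Set 3 library (-0.21). Sets did not overlap for 4 members, Tet1, Tet2, Dnmt3b and Zfp57, as for 26.2% of tested genes. The labels leave the meaning of a set unstated, and the source of these differences was not tested.

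Fold changes also moved with the GC content of transcripts. Over 14226 genes, log2 fold changes and GC content had a Spearman correlation of 0.385 in siStag3 against siLuc, -0.495 in siLuc against untreated cells, -0.316 in siStag3 against untreated cells and 0.492 in Set 3 against Set 1. These are descriptions across genes, which are not independent replicates. The members span this range. Tet1 (43.7% GC), Tet2 (45.4%) and Zfp57 (45.8%) are below the median of 50% of tested genes, and Dnmt1 (54.0%), Uhrf1 (53.7%), Tet3 (53.4%), Dnmt3l (53.3%) and Dnmt3b (53.1%) are above it. With the median deviation of 20 bins of GC content subtracted in each library, 2 of 10 members passed in siLuc against untreated cells, beside 7.01% of genes. Dnmt3b was then at 0.15 (edgeR adjusted p = 0.0209) and Zfp57 at -0.20 (adjusted p = 0.0325). No member passed in siStag3 against siLuc, beside 0.428% of genes, where Dnmt3b had -0.17 (adjusted p = 0.0707) and Dnmt3l -0.38 (adjusted p = 0.0913). No member passed in siStag3 against untreated cells either, beside 6.77% of genes. In Set 3 against Set 1, 8 of 10 then passed, beside 41.5% of genes, with Tet2 at -0.73, Tet1 at -0.61 and Zfp57 at 0.49. Without the set term in the fit, no member passed in any comparison between groups, beside 0%, 0.00702% and 0.014% of genes (0, 1 and 2 genes).

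By pattern over the 9 libraries, after the mean of each set was subtracted, the genes most like Dnmt3l among 11709 compared were Srgap1 (Pearson r = 0.965), Ufsp2 (0.962) and Pde8a (0.956). Those most like Tet1 were Gatad2b (0.980), Ubr1 (0.975) and Spire1 (0.974). These values are the highest of many and describe the same 9 libraries, which share depth and GC differences.

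Other genes of the pathway were followed in fixed lists. In siStag3 against siLuc, none of the listed genes passed in any of the 6 lists in the edgeR fit with the set term. With the GC correction 2 passed there, beside 0.428% of all genes, Lin28a at -0.23 (adjusted p = 0.0144) and Stk31 at -0.30 (adjusted p = 0.0226). Of 9 readers of DNA methylation, 1 passed in siStag3 against untreated cells, where 2.53% of all tested genes passed. Mbd1, which binds methylated CpG, fell there by 0.31 on the log2 scale (edgeR adjusted p = 0.0357), from 32.0 ± 1.07 to 25.8 ± 1.68 CPM. It stood at 27.0 ± 1.16 CPM in siLuc. None of 18 tested cofactors of the writers and of maintenance passed in any comparison, whereas with the GC correction 2 of 18 passed in siLuc and 2 of 18 in siStag3 against untreated cells, beside 7.01% and 6.77% of all genes. Of 19 tested genes of base excision repair and demethylation, 1 rose and 1 fell in siLuc against untreated cells, where 4.2% of all tested genes passed. Gadd45a, a stress-response gene that has been linked to demethylation, rose by 0.52 (adjusted p = 0.0175), from 4.82 ± 0.177 to 6.96 ± 0.823 CPM. Idh2, a mitochondrial source of the TET cosubstrate alpha-ketoglutarate, fell by 0.24 (adjusted p = 0.0431). Idh2 did not pass with any 1 of the 6 libraries left out (adjusted p up to 0.214), in Set 1 alone (adjusted p = 0.0760) or with the GC correction (-0.13, adjusted p = 0.0631).

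Among 16 regulators of the methyltransferases in naive cells, 1 passed in siStag3 against untreated cells, where 2.53% of all tested genes passed. Dppa3, whose protein binds UHRF1 and keeps it from chromatin, fell there by 0.86 on the log2 scale (SE 0.102, edgeR adjusted p = 0.000781). Its mean level was 44.0 ± 6.16 CPM without transfection, 34.7 ± 2.35 CPM with siLuc and 24.2 ± 2.51 CPM with siStag3 (SD, n = 3 each). Against siLuc its log2 fold change was -0.52 with adjusted p = 0.168, the smallest p of this list in that comparison. Lin28a, an RNA-binding protein of stem cells, rose by 0.22 in siLuc against untreated cells (adjusted p = 0.0343). It was the 1 of 16 that passed there, beside 4.2% of all tested genes.

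Of 22 tested germline genes that are known to be silenced by DNA methylation, 2 rose in siLuc against untreated cells (4.2% of all tested genes passed there) and 2 in siStag3 against untreated cells (2.53% passed). None fell in that fit, and with the GC correction 1 of them, Stk31, was lower in siStag3 against untreated cells (-0.42, adjusted p = 0.000109). With that correction 6.77% of all genes passed there in either direction. Ddx4, a germ cell RNA helicase, rose from 2.70 ± 0.428 CPM without transfection to 4.58 ± 0.896 CPM with siLuc and 4.12 ± 1.26 CPM with siStag3, by 0.75 (edgeR adjusted p = 0.0128) and 0.58 (adjusted p = 0.0466). Taf7l, a germ cell paralog of a general transcription factor subunit, rose by 0.72 in siLuc against untreated cells (adjusted p = 0.0352); it is below the level set for naming and was added after its values were seen. D1Pas1, a testis helicase gene, rose by 0.29 in siStag3 against untreated cells (adjusted p = 0.0343). The median log2 fold change of this list was 0.22 in siLuc against untreated cells, with 19 of 22 genes above 0, beside -0.00242 over all genes. It was -0.15 in siStag3 against siLuc, with 4 of 22 above 0, beside -0.00479, and the 2 comparisons share the siLuc libraries. In siLuc against untreated cells, 13 of 18 cofactors, 11 of 18 imprinted genes and 10 of 16 regulators were above 0. So were 5 of 9 readers and 8 of 19 repair genes. In siStag3 against siLuc the counts were 6 of 18, 10 of 18, 4 of 16, 3 of 9 and 7 of 19 in the same order. The share of all tested genes above 0 was not computed. Stk31, a germ cell kinase gene, had the smallest p of the germline list in siStag3 against siLuc (-0.38, adjusted p = 0.394).

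Of 18 tested imprinted genes near control regions bound by ZFP57, 2 rose in siLuc against untreated cells, and 2 rose and 3 fell in siStag3 against untreated cells, beside 4.2% and 2.53% of all tested genes in either direction. With the GC correction 2 were higher and 3 lower in siLuc against untreated cells, beside 7.01% of all genes in either direction. Igf2r, Usp29 and Peg10 were the lower ones (-0.20, -0.36 and -0.27). In siStag3 against untreated cells 3 were then higher and 3 lower, beside 6.77% of all genes. Mest rose from 50.4 ± 9.51 CPM without transfection to 69.6 ± 5.98 CPM with siLuc and 71.1 ± 8.32 CPM with siStag3, by 0.48 (edgeR adjusted p = 0.00192) and 0.50 (adjusted p = 0.0012). Impact rose by 0.32 (adjusted p = 0.0293) and 0.30 (adjusted p = 0.0452) in the same comparisons. In siStag3 against untreated cells, Peg10 fell by 0.42 (adjusted p = 0.00557), Usp29 by 0.42 (adjusted p = 0.0252) and Igf2r by 0.38 (adjusted p = 0.0111). The allele of origin was not analysed here. Igf2, with the smallest p of the list in siStag3 against siLuc, was at 0.105 ± 0.111 CPM in siLuc and 0.418 ± 0.146 in siStag3 (log2 fold change 1.86, adjusted p = 0.460), close to the floor of 3 counts. Of the 16 calls in these lists 15 also passed with the GC correction and 0 without the set term. When each library of the groups compared was left out in turn, Mest in both comparisons and Dppa3 passed all 6 times, Peg10 passed 5 times, Ddx4 in siLuc and Igf2r passed 4 times and Usp29 passed 3 times. Each other call passed at most 2 times.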

How the data were processed

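The values used here are the gene counts that the authors deposited, in a table with 1 column for each of 9 libraries. The submitters' processing notes name FastQC, Salmon, DESeq2 and GRCm39 without roles or versions, and the strand setting is not given in the sources used here. Counts are whole numbers. Column names give group, set and experiment but not the replicate numbers of the samples, so libraries were assigned to groups only. Libraries held 29332436 to 44527534 counts, and floors cover counting error only.

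Tests used edgeR 4.0.16 under R 4.3.3, with TMM factors, filterByExpr and a robust quasi-likelihood fit. All 9 libraries entered 1 fit with group and set as terms. P-values were two-sided and adjusted by the Benjamini-Hochberg method over 14246 genes, with a threshold of 0.05. Standard errors are the absolute log2 fold change over the root of F, and CPM values use TMM factors. Ratios were tested by exact permutation of the libraries compared, with no term for the set, in scipy 1.17.1. The correction for GC content used 20 bins.

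GC content, lengths and shared 31-base words came from GENCODE M21 transcripts, which hold 16604 of 16636 gene IDs, and promoters from RefSeq GRCm38.p6, where all 10 members matched by symbol. The authors' counts may rest on another build, so no gene coordinates are given beside those promoters. The alternatives were no set term, GC correction, DESeq2 size factors, total count only, a Wald test in DESeq2 1.42.0, tables left unfiltered or held to a mean count of 50 or more, the 6 libraries compared, Set 1 alone and each library left out. The alternatives for the difference between sets, and a replicate block of set and experiment, were added after the data were seen. The fits with and without the GC correction were run on simulated counts, for siStag3 against siLuc only. Those counts took their spread from the same data, so they give no separate check of the results for the members.

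The members, lists and tests were chosen with earlier results of these data known. All members and Stag3 are named. From each list and comparison, up to 3 genes passing in each direction whose mean reaches 1 log2 CPM are named, or else the gene with the smallest p. The 3 genes most like a member are named for the member with the smallest p in a comparison.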

Additional observations from a re-analysis of the deposited data

Results flagged for a closer look

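For 4 members the difference between groups had opposite signs in Set 1 and Set 3, with no overlap between the groups in Set 1. The share of all tested genes with this pattern was not computed, so whether 4 members is more than usual cannot be said. Set 3 has 1 library per group, so its groups cannot overlap, and the difference between the sets was not tested. Tet1 in siStag3 against untreated cells differed by 0.16 on the log2 scale in Set 1 and by -0.0786 in Set 3. Tet2 in siStag3 against siLuc differed by 0.16 in Set 1 and by -0.00916 in Set 3, where the levels were nearly equal. Tdg in siStag3 against untreated cells differed by 0.11 in Set 1 and by -0.0630 in Set 3. Zfp57 in siLuc against untreated cells differed by -0.20 in Set 1 and by 0.0626 in Set 3.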

How the results depend on the processing

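The columns carry no replicate number of the samples, so a replicate block of set and experiment was added after the data were seen, without the siLuc Set 3 library, which has no partner. It gave 2 genes in siStag3 against siLuc, 87 in siLuc against untreated and 347 in siStag3 against untreated, and changed no call of a member. After group and set means were removed, Set 1 libraries of the same experiment correlated at -0.0439 to -0.0254 across genes, so the numbers were not used as pairs in the main tests. The matches of set and experiment given above are descriptions only. The count of genes that passed depended on the fit. In siStag3 against siLuc it was 4, and 0 without the set term (where 307 had an unadjusted p under 0.05), 61 after GC correction, 22 with DESeq2, 1 with only the 6 libraries and 0 to 4 with 1 library left out (0 without the siStag3 library of Set 1 experiment 1, 2 without siLuc Set 1 experiment 3). In siLuc against untreated cells it was 598, and 1, 998, 1337 and 1801 in the same order, 298 in Set 1 alone and 111 to 387 with any 1 of the 6 libraries left out. In siStag3 against untreated cells it was 361, and 2 without the set term, 965 with the GC correction, 949 in Set 1 alone and 78 to 1591 with any 1 of the 6 left out (1591 without the Set 3 siStag3 library, 78 without siStag3 Set 1 experiment 1). Of 480 values of members under these alternatives, 459 kept direction and call, 17 changed sign and 4 passed anew, as given above. No member passed in siStag3 against siLuc or against untreated cells under any of them.

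Sign changes were as follows. With the GC correction, Dnmt1 was at -0.00112 in siStag3 against siLuc, 0.0226 in siLuc against untreated and 0.0215 in siStag3 against untreated. In Set 1 alone, siStag3 against siLuc gave -0.0218 for Dnmt1, -0.00439 for Dnmt3a and 0.0810 for the summed Tet to Dnmt ratio. In siStag3 against untreated cells, Uhrf1 was at -5.94e-05 with total count scaling and Zfp57 at 0.000743 without the set term. With 1 library left out, siStag3 against siLuc ran from -0.0130 to 0.0916 for Dnmt1 and -0.0167 to 0.0538 for Dnmt3a, and siStag3 against untreated from -0.0841 to 0.0210 for Dnmt1, -0.42 to 0.0389 for Tet3 and -0.0779 to 0.0310 for Zfp57. Log2 ratio differences then ran from -0.00579 to 0.0598 for Dnmt3a to Dnmt3b and -0.15 to 0.0681 for Dnmt3l to the others, both in siLuc against untreated, and -0.0602 to 0.0176 for Tet2 to Tet1 in siStag3 against untreated. The summed Tet to Dnmt ratio ran from -0.25 to 0.22, -0.0133 to 0.34 and -0.11 to 0.42 in the 3 comparisons. The median length moved 7 places in the order of levels. Between sets, Dnmt3a missed the threshold with total count scaling (-0.17) and without the untreated Set 3 library (-0.21), and Tdg passed with total count scaling (0.15, adjusted p = 0.0272). The low counts of Tet3 and the single Set 3 library per group limit precision, and the causes of these changes were not tested.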
